A study of Mus musculus with 88 samples.

Results

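The genes described here encode the proteins of the cytosolic ribosome. They were chosen by gene name from a table of 21942 mouse loci: names of the Rps or Rpl series with a number and at most a short suffix, together with Rpsa, Rplp0, Rplp1 and Rplp2. Of 82 rows with such a name, 4 on the X chromosome (Rpl10, Rps4x, Rpl36a and Rpl39) were left out, and Rpl3l and Rpl6l did not reach 10 RPKM (read number scaled to transcript length and library size) in 2 libraries. The 76 that remained comprise 46 genes of the large (60S) and 30 of the small (40S) subunit by name. Of these, 71 are canonical genes and 5 are paralogs of a canonical gene (Rpl10l, Rpl39l, Rpl22l1, Rpl7l1 and Rps27l). The highest values of the left-out autosomal rows were 4.99 RPKM for Rpl3l and 2.03 RPKM for Rpl6l, and 75 of the 76 genes had 10 RPKM or more in every library. The pattern also passes over a few ribosomal protein genes whose names it does not match (such as Fau, Rps3a1 and Rpl36al), which are given as a list of their own.

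Ribosomal protein mRNAs are among the most abundant in growing cells, and their proteins join ribosomal RNA in the nucleolus to form the small and the large subunit. Most of these mRNAs begin with a short run of pyrimidines, the terminal oligopyrimidine (TOP) motif, through which mTOR signalling controls their translation, and Myc family factors raise the transcription of many ribosome genes. A few canonical proteins have paralogs with restricted expression: Rpl10l and Rpl39l are known from the testis, where they stand beside the X-linked Rpl10 and Rpl39.

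RNA was measured in 26 libraries of embryonic stem cell (ESC) lines and mouse embryonic fibroblasts (MEFs), and 62 bisulfite samples were not analysed here. In the F1 of 129X1/SvJ and C57BL6 (B6 cross), 4 ESC lines (2 XX and 2 XY) were derived in each of 4 media and taken at passage 3. The media were 2i (a MEK and a GSK3 inhibitor), t2i (titrated MEK inhibitor), a2i (a Src inhibitor replacing the MEK inhibitor) and serum; the lines are c3 and c4 (XX), c2 and c6 (XY) in 2i, t1 and t3 (XX), t2 and t6 (XY) in t2i, a4 and a18 (XX), a1 and a3 (XY) in a2i, and 17 and 46 (XX), 10 and 16 (XY) in serum. In the F1 of 129X1/SvJ and MSM/Ms (MSM cross) there were 2i ESC lines 15 and 2 (XX) and 20 and 23 (XY), serum ESC lines 8 (XX) and 12 (XY), called S, all at passage 3, a 2iS culture (line 15 taken from 2i into serum for 14 more passages), MEFs 2 and 4 at passage 1, and 2iMEFs made from line 15 (passage 5 of the ESCs, then 1). Line 15 therefore stands in 3 groups, each line is 1 replicate, and the labels give conflicting sexes for the MEF libraries, which were given none.

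Pluripotency markers (10 genes) summed to between 7781 and 15768 RPKM in the ESC libraries and to 77.6 and 125 RPKM in the MEFs. Fibroblast markers (16 genes) summed to 9474 and 11154 RPKM in the MEFs and to 22048 in the 2iMEFs. In the B6 cross they summed to between 951 and 1495 RPKM in the serum lines and to at most 12.3 RPKM in the other media, and the median marker stood at 8.08% to 14.7% of its MEF level in serum. Serum lines of the MSM cross stood at 0.53% and 1.85%, and the 2iS culture at 1.499%. Of the 16 markers, 6 or 7 were listed at 0 in 2i lines of the B6 cross, 3 to 8 in t2i, 1 to 7 in a2i and 0 in serum. Markers of trophoblast (7 genes) summed to 94.2 to 199.6 RPKM in those serum lines and 44.8 to 67.2 in the other media of the cross, and markers of primitive endoderm (7 genes) to 18.7 to 88.4 and 1.58 to 3.30 RPKM. The part of the last pair of lists in the results was not tested. Counts, medians and named genes that rest on B6-cross serum lines are therefore also given after subtraction of that share of the MEF profile. Both MEF libraries belong to the MSM cross, whose libraries were processed differently, as described below. The part of this in the B6-cross shares and subtracted values was not tested. The subtraction was partial. Of 7 fibroblast markers still tested after it, limma called 6 lower and 1 higher in 2i than in serum (median −2.93). In t2i and in a2i, 6 were lower and 0 higher. Of 4 primitive endoderm markers, 3 were still called lower in 2i and 0 higher. In bulk RNA, a smaller share of a cell type and less RNA per cell cannot be told apart.

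RefSeq promoters (build GRCm38.p6) were at hand for 56 of the 76 genes. A run of at least 8 bases that are C or T, read on the coding strand within 15 bases of the start, was present in 25 of them (44.6%), and in 13.9% of all 27025 promoters. The ETS core CGGAAG, on either strand of the 300 bases from 250 before to 50 after the start, was present in 38 (67.9%), against 18.8% of all promoters. A TATAAA box between 40 and 11 bases before the start was present in 1 (1.79%), against 2.51%. In these windows the members held a median of 22.5 CpG sites, from 8 to 39, against 8 over all promoters. A match describes letters only and is not evidence of a factor's binding. The start lay at the RefSeq end of the gene in 60.4% of promoter rows, so runs near other starts would be missed.

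Start regions that hold such a run are shown for Rps6 (the substrate of S6 kinase), Rpl35 and Rps9 as plain examples, for Rps15a and Rpl13a because their levels are described below, and for the paralogs Rpl22l1 and Rps27l. Each is 30 bases from RefSeq on GRCm38.p6, 5′ to 3′, with the start after base 15 and the longest pyrimidine run in capitals. In Rps15a the capitals lie wholly before the start. Another run of at least 8 bases lies across its start and is left in lower case. Rps27l has another RefSeq start, whose window (chr9:66946398-66946427) holds no such run.
Rps6 (chr4:86857353-86857382, minus strand): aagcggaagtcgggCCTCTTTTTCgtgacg
Rpl35 (chr2:39005117-39005146, minus strand): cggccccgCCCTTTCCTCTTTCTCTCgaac
Rps9 (chr7:3704026-3704055, plus strand): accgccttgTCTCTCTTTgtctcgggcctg
Rps15a (chr7:118116133-118116162, minus strand): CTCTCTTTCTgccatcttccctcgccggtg
Rpl13a (chr7:45128731-45128760, minus strand): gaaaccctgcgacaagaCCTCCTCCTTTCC
Rpl22l1 (chr3:28805493-28805522, plus strand): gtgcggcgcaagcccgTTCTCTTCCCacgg
Rps27l (chr9:66946071-66946100, plus strand): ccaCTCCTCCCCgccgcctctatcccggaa

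The same window holds no run of that length in the paralogs Rpl39l, Rpl10l and Rpl7l1, nor in Rplp0, which encodes the base of the large subunit's stalk. Rpl22 and Rps12 also had none, but both Rpl22 windows end before its deposited locus (chr4:152325741-152334071). The Rps12 window (chr10:23787195-23787224, minus strand) meets its deposited locus only at the last base, so absence of a run was not settled for these genes.
Rpl39l (chr16:10170213-10170242, plus strand): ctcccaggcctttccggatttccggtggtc
Rpl10l (chr12:66284387-66284416, minus strand): tttggcctccattttgcggctggcggtggg
Rpl7l1 (chr17:46782642-46782671, minus strand): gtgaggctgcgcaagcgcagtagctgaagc
Rplp0 (chr5:115559452-115559481, plus strand): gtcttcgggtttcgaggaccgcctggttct

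Rpl39l and Rpl10l moved most between the media. The 200 bases before their RefSeq starts are printed with each CG dinucleotide in capitals. The 300-base promoters hold 17 CpG sites in Rpl39l, 13 in Rpl10l and 16 in Rpl7l1, all below the median of the family but within its range, and 30 in Rpl22l1 and 29 in Rps27l.
Rpl39l (chr16:10170028-10170227, plus strand): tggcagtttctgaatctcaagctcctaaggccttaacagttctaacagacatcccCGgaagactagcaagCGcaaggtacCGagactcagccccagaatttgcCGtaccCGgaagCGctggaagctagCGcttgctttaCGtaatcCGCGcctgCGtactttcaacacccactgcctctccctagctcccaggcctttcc
Rpl10l (chr12:66284402-66284601, minus strand): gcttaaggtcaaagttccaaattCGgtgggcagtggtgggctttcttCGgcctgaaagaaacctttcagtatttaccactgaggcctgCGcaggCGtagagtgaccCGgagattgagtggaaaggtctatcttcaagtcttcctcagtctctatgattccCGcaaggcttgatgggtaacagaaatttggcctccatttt
Of these stretches, the one of Rpl39l holds 11 CG dinucleotides and that of Rpl10l holds 6. The Rpl39l promoter contains the ETS core and that of Rpl10l does not, and neither do those of Rpl22l1 and Rpl7l1.

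Together the 76 genes made up 22.1% ± 3.73 (SD, n = 26) of the summed RPKM of a library, from 14.3% to 29.2%. RPKM is per transcript length, so these are shares of molecules and not of reads. The sum runs over all loci, and every MSM-cross library has 0 at the 13 mitochondrial and 183 Y-linked loci. Shares of the B6 and MSM crosses therefore rest on unlike sums. The highest mean levels belonged to Rplp1 (7169 ± 1245 RPKM, SD, n = 26) and Rplp2 (5078 RPKM), acidic proteins of the stalk, and to Rps12 (5191 RPKM) of the small subunit. The lowest were those of 3 paralogs, Rpl7l1 (112 RPKM), Rpl39l (91.7 RPKM) and Rpl10l (82.8 RPKM). The canonical genes varied little among the 23 ESC libraries: the SD of the log2 level had a median of 0.25, lowest in Rpl29 (0.14) and highest in Rpl12 (0.58), 2 genes named after their values were seen. The paralogs Rpl10l and Rpl39l had SDs of 1.11 and 1.09, Rpl22l1 had 0.48, Rps27l had 0.28 and Rpl7l1 had 0.15. These SDs span both crosses, whose libraries were processed differently, so they hold differences between the crosses as well as among lines. In 2i, Rpl12 read a mean of 4622 RPKM in the B6 cross and 1954 RPKM in the MSM cross, without overlap.

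In the B6 cross, the share was 21.97%, 26.2%, 25.3% and 27.5% in 2i lines c3, c4, c2 and c6 and 21.6%, 21.6%, 19.9% and 21.5% in serum lines 10, 16, 17 and 46. All 2i lines lay above all serum lines, with line c3 close to the highest of them. Means were 25.3% ± 2.37 in 2i, 23.9% ± 1.92 in t2i, 24.9% ± 3.04 in a2i and 21.2% ± 0.83 in serum (SD, n = 4 each). In the MSM cross, 2i lines 15, 2, 20 and 23 held 24.1%, 20.0%, 23.8% and 20.2%, and S lines 8 and 12 held 19.0% and 21.3%, so these groups overlapped. MEFs held 14.5% and 14.3%, the 2iMEFs 14.4%, and the 2iS culture 21.98%. The 6 libraries with the highest summed level of these genes were also the 6 with the highest RPKM sum over all genes, which includes these genes. With each library divided by that sum (TPM scaling), their median log2 difference between 2i and serum in the B6 cross was 0.22, against 0.35 without it. Beyond this scaling, the part of that total in the differences was not tested.

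**Figure D1:**
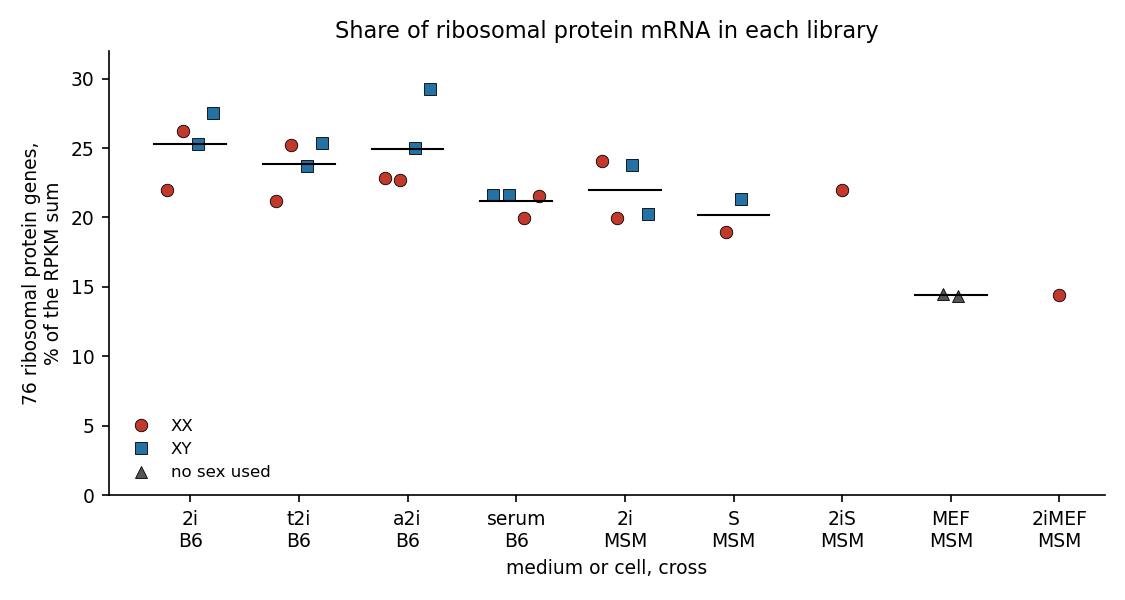
Share of the summed RPKM (percent, y axis) taken by the 76 ribosomal protein genes in each of the 26 libraries, by medium or cell and cross (x axis), with the mean of each group as a line. The MEFs and 2iMEFs sit between 14.3% and 14.5%, below all ESC libraries, and the 2i lines of the B6 cross lie above its serum lines.

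Ribosomal protein genes of both subunits were higher in 2i than in serum in the B6 cross, by little for most canonical genes and by much for 2 paralogs. Of the 76 genes, 51 were called higher and 0 lower (limma, Benjamini-Hochberg adjusted p under 0.05 over 13150 genes), where 16.8% of all genes tested were called higher and 30.7% lower. At an unadjusted p under 0.05, 66 were higher and 0 lower. Differences on the log2(RPKM + 1) scale ran from 0.12 to 2.14, all above 0, with a median of 0.35 (1.27-fold), against −0.09 over all genes and 0.10 over the 1221 other genes that reach a mean of 100 RPKM. Called genes made up 25 of 30 in the small subunit (median 0.40) and 26 of 46 in the large subunit (median 0.32); the difference between subunits was not tested. In 41 genes every 2i line lay above every serum line, as did 9.28% of 12689 genes.

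**Figure D2:**
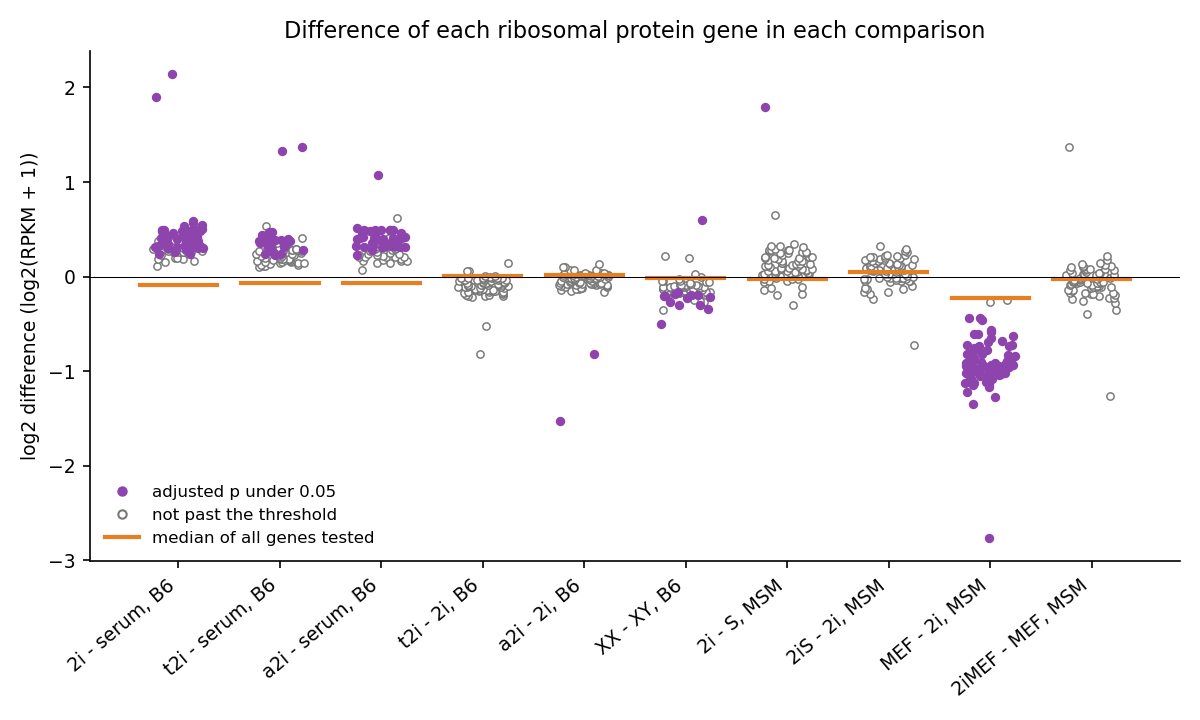
Log2 difference (y axis) of each of the 76 ribosomal protein genes in each comparison (x axis), with the median of all genes tested as a line. Rpl10l is left out of the MEF and 2iMEF columns, where it is listed at 0, and a2i minus t2i is not drawn. The genes lie above 0 in 2i, t2i and a2i against serum, with Rpl39l and Rpl10l apart from the rest, and below 0 in MEFs against 2i.

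Among canonical genes, Rps15a, a protein of the small subunit, read 4509, 6602, 5076 and 6898 RPKM in 2i lines c3, c4, c2 and c6 and 4237, 4381, 3116 and 3566 RPKM in serum lines 10, 16, 17 and 46. The groups did not overlap, and the difference was 0.58 log2 units (SE 0.16, limma adjusted p = 0.0084). Rps29, a small zinc-binding protein of the 40S subunit, read 5081, 5790, 5027 and 5633 RPKM in the same 2i lines and 3542, 3750, 3742 and 3706 RPKM in serum. Its levels in serum lay close together and below all of 2i, and the difference was 0.54 (SE 0.09, limma adjusted p = 0.00023). Quantile normalization ended this call (0.16, limma adjusted p = 0.086). Rps25 (0.56, SE 0.15) and Rps20 (0.54, SE 0.13) were also called higher. The stalk gene Rplp0 showed the smallest difference, with 1804, 2212, 2599.6 and 2910 RPKM in 2i against 2350.0, 2186, 2030.1 and 2094 RPKM in serum. These groups overlapped and the difference of 0.12 (SE 0.09) did not pass the test (limma adjusted p = 0.33). After subtraction of the fibroblast share, Rps15a stood at 0.55 (limma adjusted p = 0.015), Rps29 at 0.46 (0.001), Rps25 at 0.49 (0.021), Rps20 at 0.44 (0.017) and Rplp0 at 0.03 (0.82).

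The count depended on single libraries and on scaling. It was 17 without 2i line c4, 18 without c6, 19 without serum line 17, 29 without serum line 16 and 31 without serum line 10. After subtraction of the fibroblast share, 24 of the genes were called higher and the median was 0.26, against −0.07 over all genes. Under quantile normalization, which forces 1 distribution of values on all libraries, 21 were called higher and 1 lower. There the median of these genes was 0.09 and that of all genes 0.08, a shift of all genes from −0.09. With TPM scaling, 43 were called higher, with medians of 0.22 and −0.20. The share of all genes called in these alternative fits is not given here, so their counts have no background.

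Rpl39l, the paralog of a protein that lines the ribosome's exit tunnel (chr16:10170225-10174911, mm10, as deposited), rose the most. It read 98.6 and 152 RPKM in the XX lines c3 and c4 and 99.9 and 168 RPKM in the XY lines c2 and c6 in 2i. In serum it read 29.3 and 43.4 RPKM in XX lines 17 and 46 and 23.6 and 19.6 RPKM in XY lines 10 and 16. Every 2i line was above every serum line, and the difference was 2.14 (SE 0.25, limma adjusted p = 1.5e-05). The MEFs held 25.6 and 42.3 RPKM of it, and after subtraction of the fibroblast share the gene was still called (limma adjusted p = 2.7e-05).

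Rpl10l, an autosomal relative of the X-linked Rpl10 (chr12:66283378-66284401, mm10, as deposited), was also higher in 2i in this cross. It read 75.1, 93.9, 85.3 and 96.1 RPKM in 2i lines c3, c4, c2 and c6 and 16.0, 20.3, 22.9 and 35.7 RPKM in serum lines 10, 16, 17 and 46. The groups did not overlap, and the difference was 1.89 (SE 0.18, limma adjusted p = 1.9e-06), or 1.72 after subtraction (limma adjusted p = 1.4e-05). Rpl10l and Rpl39l were called in this comparison under each alternative run, quantile normalization and subtraction included. Of the other paralogs, Rpl7l1, a nucleolar relative of Rpl7, was called higher at 0.24 (SE 0.08, limma adjusted p = 0.026). Rpl22l1 (0.39, SE 0.21, limma adjusted p = 0.15) and Rps27l, a p53-responsive relative of Rps27 (0.19, SE 0.14, limma adjusted p = 0.28), did not pass. The Rpl7l1 call was lost without 2i line c4, 2i line c6 or any 1 of the 4 serum lines, with TPM scaling, with only the compared libraries and after fibroblast subtraction (0.15, limma adjusted p = 0.16); with a library left out its difference ran from 0.17 to 0.30.

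**Figure D3:**
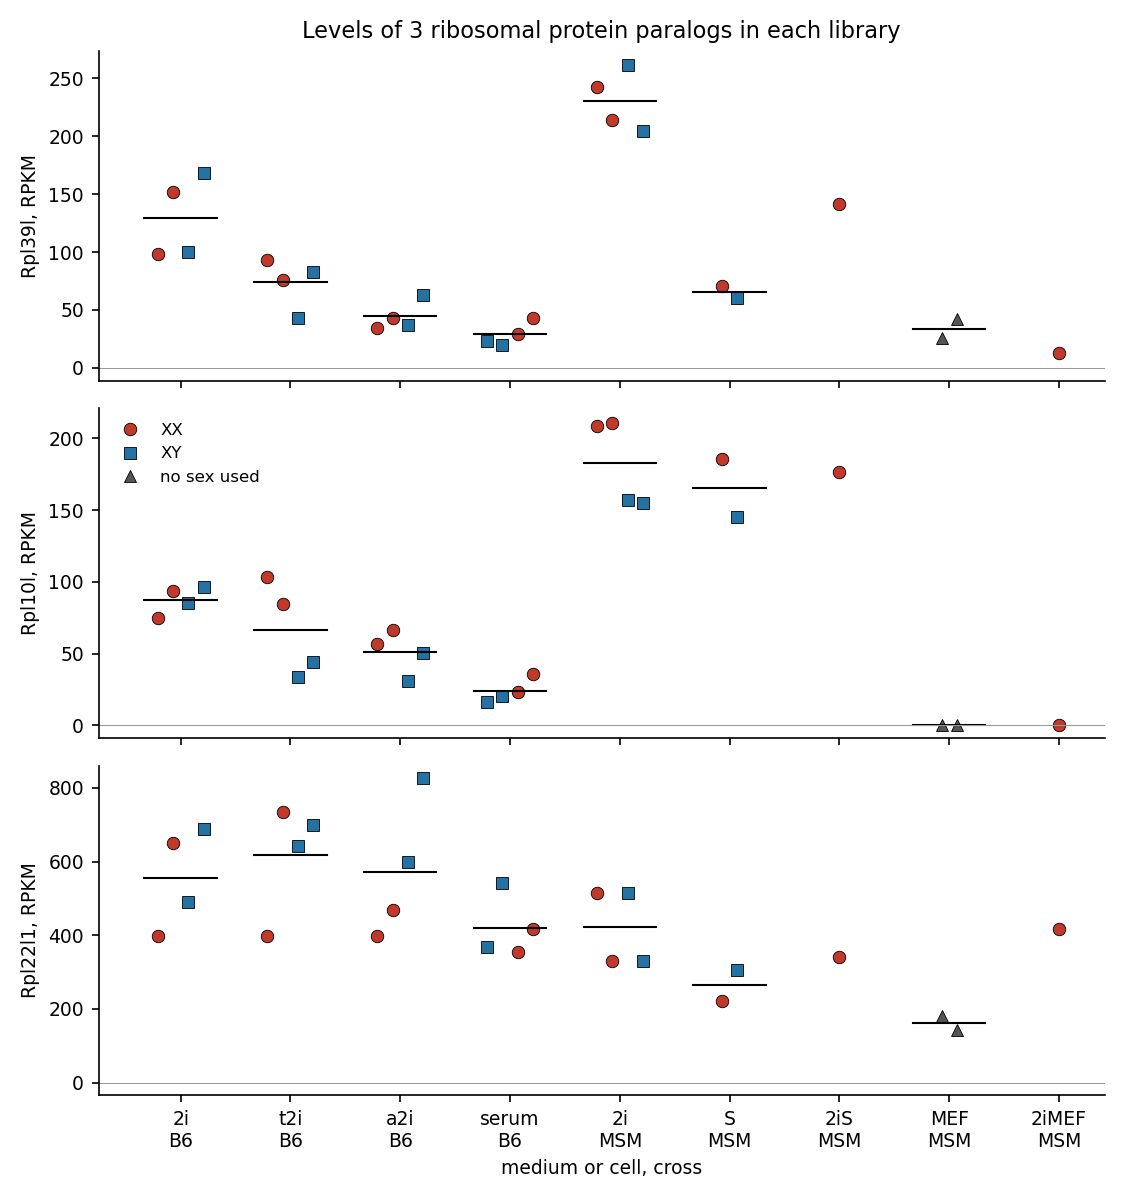
RPKM (y axis) of Rpl39l, Rpl10l and Rpl22l1 in every library, by medium or cell and cross (x axis), with the group mean as a line and the sex of the line as the symbol. Rpl39l is lower in serum or S than in 2i in both crosses, Rpl10l only in the B6 cross, where the difference between the crosses passes its test, and Rpl10l is listed at 0 in MEFs and 2iMEFs.

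In t2i, 23 of the 76 genes were called higher than in serum and 0 lower (limma; 15.3% and 28.5% of all genes), with 40 and 0 at an unadjusted p under 0.05. Their median was 0.27, against −0.07 over all genes and 0.12 over the other genes above 100 RPKM. In a2i, 39 were called higher and 0 lower (limma; 12.4% and 25% of all genes), with 56 and 0 at an unadjusted p under 0.05, and the median was 0.33 against −0.06 and 0.08. These comparisons and that of 2i share the serum lines, so their common direction is not independent. Rps20, a protein of the small subunit's head, stood at 0.54 in 2i, 0.44 in t2i and 0.50 in a2i against serum, and all 3 differences were called. Its call in t2i was lost after fibroblast subtraction (0.33) and without t2i line t3 (0.32), t2i line t6 (0.39) or serum line 17 (0.40).

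The t2i count ranged widely when a library was left out: 42 without t2i line t1, 14 without serum line 46, 10 without serum line 10, 7 without serum line 16, 6 without t2i line t3, and 5 without t2i line t6 or serum line 17. After subtraction of the fibroblast share, 4 genes were called in t2i (median 0.18, against −0.06 over all genes). In a2i 15 were called (median 0.25, against −0.05). The share of all genes called in these fits, and in those without a library, is not given here, so the counts have no background. The a2i count was 13 without a2i line a3, 15 without serum line 17, 19 without a2i line a4 or serum line 16, and 20 without serum line 10. Line a3 held the highest share of these genes of all 26 libraries.

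Against 2i itself, the canonical genes were not called in t2i or a2i. In t2i minus 2i, 0 genes were called higher and 0 lower by limma (4.19% and 3.89% of all genes), with 0 and 2 at an unadjusted p under 0.05, and a median of −0.09 against 0.01. In a2i minus 2i, 0 were called higher and 2 lower (7.94% and 5.85% of all genes), the same 2 at an unadjusted p under 0.05, with a median of −0.02 against 0.02. In a2i minus t2i, 0 were called either way by limma (0.707% higher and 0.297% lower among all genes), with 0 higher and 1 lower at an unadjusted p under 0.05.

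The 2 genes lower in a2i were Rpl39l and Rpl10l. Rpl39l read 92.9, 76.3, 43.1 and 82.8 RPKM in t2i lines t1, t3, t2 and t6 and 34.7, 43.3, 36.6 and 63.0 RPKM in a2i lines a4, a18, a1 and a3. All a2i lines lay below all 2i lines, by a difference of −1.52 (SE 0.25, limma adjusted p = 0.0016). The t2i lines overlapped the a2i lines, since line t2 lay below a18 and a3, and stood at −0.82 against 2i (SE 0.25, limma adjusted p = 0.063). Rpl10l read 103, 84.8, 33.6 and 44.4 RPKM in the same t2i lines and 56.6, 66.1, 30.9 and 50.2 RPKM in the a2i lines. It was −0.82 in a2i against 2i (SE 0.18, limma adjusted p = 0.0084) and −0.53 in t2i (SE 0.18, limma adjusted p = 0.088). Against serum, Rpl10l was called higher in t2i (1.37) and a2i (1.08), and Rpl39l in t2i (1.32) but not in a2i (0.62, SE 0.25, limma adjusted p = 0.067). After subtraction Rpl10l stood at 1.19 and 0.91 and Rpl39l at 1.38 and 0.68 in t2i and a2i, and the same 3 differences were called. By mean level in the B6 cross, both paralogs thus ran in the order 2i, t2i, a2i, serum, and the neighbouring steps from 2i to t2i and from t2i to a2i did not pass the test.

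In the MSM cross the same 2i and serum contrast called 1 of the 76 genes higher and 0 lower (limma over 13443 genes; 8.36% and 8.67% of all genes), with 3 and 0 at an unadjusted p under 0.05. The median was 0.11, against −0.02 over all genes, and 63 genes lay above 0. The called gene was Rpl39l, with 242, 214, 261 and 205 RPKM in 2i lines 15, 2, 20 and 23 and 70.8 and 60.2 RPKM in S lines 8 and 12. No level of 1 group came near the other, and the difference was 1.80 (SE 0.21, limma adjusted p = 0.0021). Rpl10l read 208, 210.5, 157 and 155 RPKM in the same 2i lines and 185 and 145 RPKM in S. These groups overlapped, with a difference of 0.14 (SE 0.12, limma adjusted p = 0.45).

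Of 76 genes, 6 had every MSM 2i line above both S lines, while 17.4% of all genes did. In both crosses without overlap were 5 of them (4.77% of all genes), among them Rpl17, Rpl39l, Rps15a and Rps29. Rps15a read 4763, 4138, 4403 and 3555 RPKM in MSM 2i lines 15, 2, 20 and 23 against 3361 and 3340 RPKM in S. Its difference of 0.32 (SE 0.13) did not pass the test (limma adjusted p = 0.12), nor did that of Rps29 (0.26, limma adjusted p = 0.17). Rpl22l1 was also without overlap in this cross, at 514, 329, 515 and 331 RPKM against 223 and 307 RPKM, with a difference of 0.65 (SE 0.24, limma adjusted p = 0.10).

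A joint fit of 14 libraries tested whether the 2i and serum difference itself differed between the crosses. It called 1 of the 76 genes larger in the B6 cross and 0 smaller (limma over 13330 genes; 2.11% and 9.47% of all genes), with 9 and 0 at an unadjusted p under 0.05. That gene was Rpl10l (difference of differences 1.76, SE 0.27, limma adjusted p = 0.0012; 1.60 and 0.0074 after subtraction), whereas Rpl39l did not pass (0.34, SE 0.34, limma adjusted p = 0.56). Over the family the median was 0.25, against −0.12 over all genes, and 73 were above 0; after subtraction it was 0.18, against −0.09. Every MSM-cross library has 0 at each of the 183 Y-linked and each of the 13 mitochondrial loci of the table, XY lines included, so the crosses were processed differently. Differences in level between the crosses cannot be told apart from processing, while each cross's own 2i and serum libraries share theirs.

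**Figure D4:**
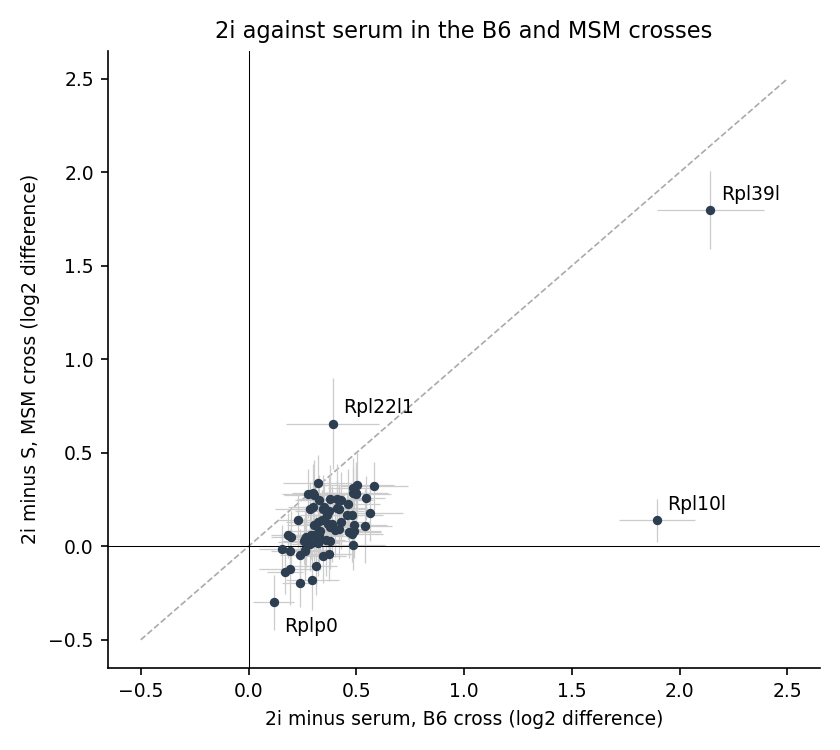
Log2 difference of each of the 76 genes between 2i and serum in the B6 cross (x axis) and between 2i and S in the MSM cross (y axis), with SE bars and a dashed line of equal values. Rpl39l is high in both (2.14 and 1.80), Rpl10l in the B6 cross (1.89, against 0.14), and most canonical genes lie below the line.

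The 2iS culture of line 15, set against the 2i lines that include its parent, had 0 of the 76 genes called higher and 0 lower by limma (0.811% and 0.409% of all genes), with 0 and 1 at an unadjusted p under 0.05. The gene was Rpl39l, at 142 RPKM in 2iS, below all 2i lines of the cross and above both S lines (−0.72, SE 0.28, limma adjusted p = 0.26). Rpl10l read 176 RPKM, inside the range of the 2i lines. The lone 2iS library was assumed to vary as the other groups do.

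Most ribosomal protein mRNAs of both subunits were lower in MEFs than in ESCs. Of the 76 genes, 74 were called lower in MEFs than in MSM-cross 2i lines and 0 higher (limma; 41.2% and 29.9% of all genes), and 74 and 0 at an unadjusted p under 0.05. The median difference was −0.94 (48.0% lower), against −0.23 over all genes and −0.69 over the 1213 other genes above 100 RPKM, of which 64.1% were called lower. Both subunits had the same median of −0.94, with 29 of 30 and 45 of 46 called. Under quantile normalization 60 were called lower and 2 higher, with a median of −0.37 against −0.13 over all genes; with TPM scaling 68 were called and all genes stood at −0.01.

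Rpl10l was listed at 0 in both MEF libraries and in the 2iMEFs, against 155 to 210.5 RPKM in the 2i lines, and no fold is given against 0. The same MEFs held 1334 and 1248 RPKM of Rpl10, to which Rpl10l is closely related. Rpl39l read 25.6 and 42.3 RPKM in MEFs 2 and 4, a difference of −2.76 from 2i (SE 0.21, limma adjusted p = 9.6e-06). Rpl22l1 (182 and 143 RPKM) fell by 1.35 (SE 0.24, limma adjusted p = 0.0013). Neither overlapped with the 2i lines.

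Canonical genes that fell the most in MEFs included Rpl5, part of the particle that binds Mdm2 (−1.28, SE 0.15), and Rpl3, a core protein of the large subunit (−1.22, SE 0.19). Rps29 read 2072 and 1973 RPKM in the MEFs against 4207 to 4933 RPKM in 2i, without overlap (−1.17, SE 0.12, limma adjusted p = 5.3e-05). The smallest differences were those of Rplp0 (−0.25, SE 0.15, limma adjusted p = 0.16) and Rps27l (−0.27, SE 0.19, limma adjusted p = 0.23), the 2 genes not called. Rplp0 read 1179 and 1154 RPKM in the MEFs and 1242 to 1716 RPKM in 2i, and Rps27l read 774 and 746 RPKM against 657 to 1244 RPKM, which overlapped. Rps15a (−0.43, SE 0.13) and Rpl13a (−0.61, SE 0.18) were called, but without MEF 2 their adjusted p rose to 0.087 and 0.077 and without MEF 4 to 0.12 and 0.10, and quantile normalization turned both to 0.11.

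The 2iMEF library, set against the MEFs, had 0 genes called higher and 0 lower by limma (0.126% and 0.327% of all genes), with 1 and 1 at an unadjusted p under 0.05 and a median of −0.05 against −0.03. Those were Rpl22l1, at 417 RPKM against 182 and 143 (1.37, SE 0.34, limma adjusted p = 0.17), and Rpl39l, at 13.1 RPKM against 25.6 and 42.3 (−1.27, SE 0.29, limma adjusted p = 0.14). With 1 library there is no check of its spread.

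Lines of the B6 cross differed by sex at a few autosomal ribosomal protein genes and at all 4 X-linked ones. Of the 76 autosomal genes, 13 were called lower in XX lines and 1 higher (limma; 20% and 21.4% of all genes), with 24 and 2 at an unadjusted p under 0.05. The median was −0.15, against −0.01 over all genes, and 72 lay below 0. The share of the family called lower or higher was below that of all genes in either direction. After subtraction of the fibroblast share the counts were the same and the median was −0.15. Rpl13a (XX 2100, 2225 and 3385, XY 2766, 3354 and 4861 RPKM as lowest, median and highest of 8 lines each) showed the lowest value, −0.50 (SE 0.11, limma adjusted p = 0.0037). The 2 groups overlapped, as they did for Rplp0 (XX 1804, 2062 and 2426, XY 2186, 2526 and 2976 RPKM), which stood at −0.30 (SE 0.07, limma adjusted p = 0.0031). Rps20 (−0.30, SE 0.09) and Rps10 (−0.27, SE 0.08), both of the small subunit, were also called.

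This count too moved with single lines. It was 26 without t2i line t3, 25 without 2i line c4 and 22 without a2i line a1. It was 8 without a2i line a4, serum line 10 or serum line 16, 7 without 2i line c6, 6 without 2i line c3, t2i line t1, t2i line t6 or a2i line a3, and 5 without serum line 17. The calls of Rpl13a, Rplp0, Rps20 and Rps10 held in each of these fits.

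The 1 autosomal gene higher in XX lines was Rpl10l (XX 22.9, 70.6 and 103, XY 16.0, 39.0 and 96.1 RPKM as lowest, median and highest), at 0.60 (SE 0.12, limma adjusted p = 0.0018). The ranges overlapped. In 2i the XX lines read 75.1 and 93.9 and the XY lines 85.3 and 96.1 RPKM, and in t2i, a2i and serum both XX lines were above both XY lines. All 4 X-linked genes were called higher in XX lines: Rpl39 by 0.77 (SE 0.10), Rpl36a by 0.77 (SE 0.08), Rpl10 by 0.73 (SE 0.06) and Rps4x by 0.64 (SE 0.05). Rpl10, the partner of Rpl10l, read 2489, 3070 and 3711 RPKM in XX and 1565, 1861 and 2112 RPKM in XY lines. Every XX line was above every XY line for Rpl10 and Rps4x. Rpl10l stood at 0% to 9.24% of the Rpl10 level in a library, and whether reads of the 2 related genes were shared in counting was not tested beyond the MEFs, where Rpl10l was at 0.

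**Figure D5:**
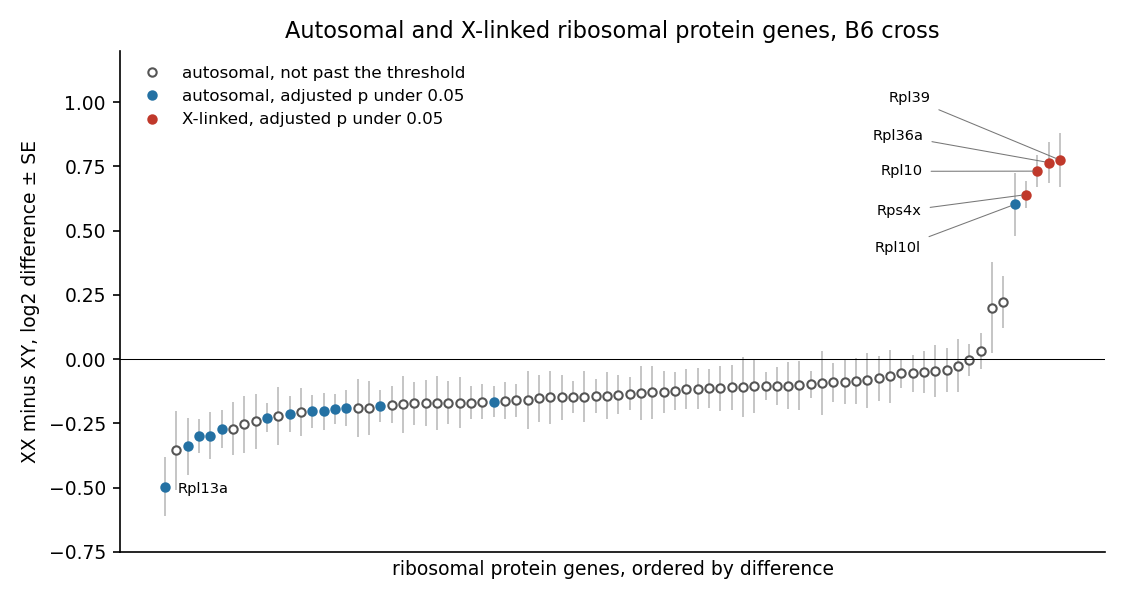
XX minus XY log2 difference (y axis, ± SE) of the 76 autosomal and 4 X-linked ribosomal protein genes in the B6 cross, ordered by value (x axis), with filled points past an adjusted p of 0.05. Of the autosomal genes 72 lie below 0, Rpl13a lowest, and Rpl10l lies beside the X-linked genes.

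As a share of its canonical partner in the same library, Rpl39l ran from 1.84% to 21.9% of Rpl39, Rpl22l1 from 11.9% to 47.7% of Rpl22, Rps27l from 15.5% to 42.6% of Rps27, and Rpl7l1 from 3.15% to 5.43% of Rpl7. Most ribosomal protein genes have processed pseudogenes of near-identical sequence, and 58 of the 76 have a RefSeq pseudogene of their name. The 16 such rows in the table had means of at most 1.36 RPKM. How reads shared with these copies were counted is not stated by any label or header, so single values are uncertain by that. In addition, 26 of the genes hold 55 snoRNA genes inside their loci.

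Other genes of the ribosome pathway are read against the 16.8% of all genes called higher and 30.7% called lower in this comparison by limma. Of the 8 ribosomal protein genes outside the 76 (the 4 X-linked ones among them), 7 were called higher in 2i than in serum in the B6 cross and 0 lower (median 0.40), Rpl36al by 0.51 (SE 0.11). Of 18 translation factors with TOP mRNAs, 7 were called higher and 0 lower (median 0.20), such as Gnb2l1, which encodes the ribosome-bound scaffold RACK1 (4928 against 3698 RPKM, 0.41, SE 0.11), and Eef1a1, the elongation factor (0.38, SE 0.12). Of 36 assembly and snoRNP genes, 11 were called higher and 6 lower (median 0.04), with Nip7 at 0.51 (SE 0.09) and Rrp12 at −0.34 (SE 0.13). Of 16 genes of RNA polymerase I transcription, 3 were higher and 2 lower (median 0.07). The median over all genes was −0.09 in each case. After subtraction of the fibroblast share, 5 of the 8 ribosomal protein genes were higher and 0 lower (median 0.31), 4 and 1 of the translation factors (0.13), 4 and 9 of the assembly genes (−0.05) and 1 and 2 of the polymerase I genes (−0.04). Of the genes named, Rpl36al (0.45), Gnb2l1 (0.35), Eef1a1 (0.34), Nip7 (0.43) and Rrp12 (−0.43) were still called.

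In the MSM cross 0 of 36 assembly genes were called higher in 2i than in S and 14 lower (limma; 8.36% and 8.67% of all genes; median −0.37), with Ebna1bp2 at 160 against 317 RPKM (−0.99, SE 0.11, limma adjusted p = 0.0019). The joint fit called 10 of the 36 larger in the B6 cross and 0 smaller (2.11% and 9.47% of all genes; median 0.45), among them Wdr12 (0.90, SE 0.16) and Eif6 (0.90, SE 0.15). After subtraction 6 were larger and 0 smaller (median 0.37), with Wdr12 at 0.80 and Eif6 at 0.91. Of 12 regulators of TOP mRNAs and ribosome genes, 1 was higher and 6 lower in 2i in the B6 cross (16.8% and 30.7% of all genes; 0 and 6 after subtraction), and 0 and 2 in the MSM cross. Myc read 2.07 against 13.6 RPKM in 2i and serum of the B6 cross (−2.27, SE 0.42, limma adjusted p = 0.00073). MEFs held 68.0 RPKM of it, and after subtraction of the fibroblast share the call was lost (−0.86, SE 0.59, limma adjusted p = 0.27). In the MSM cross Myc was lower in 2i, at 12.3 against 44.8 RPKM (−1.89, SE 0.38, limma adjusted p = 0.015). Mycn was called lower in 2i in both crosses (−0.80, SE 0.13, and −1.09, SE 0.27), and after subtraction too (−0.97 and −1.10).

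In MEFs against 2i, 33 of 36 assembly genes (median −0.95), 13 of 16 polymerase I genes (−1.06), 14 of 18 translation factors (−0.72) and 7 of the 8 other ribosomal protein genes (−0.88) were called lower, and 0 were called higher in any of these lists, where 41.2% of all genes were called lower and 29.9% higher by limma. Dkc1, the pseudouridine synthase of snoRNPs, fell by 2.34 (SE 0.12), and Npm1, a nucleolar chaperone, fell by 1.69 (SE 0.11). Myc rose by 2.55 (SE 0.38, limma adjusted p = 0.00044), to 68.0 RPKM, while Mycn fell by 4.67 (SE 0.27). Among 10 p53 targets 6 were higher in MEFs and 1 lower (median 0.54), with Ccng1 at 1.96 (SE 0.18). In XX against XY lines, 2 of 36 assembly genes were higher and 12 lower (21.4% and 20% of all genes; median −0.11), with Nat10 at −0.42 (SE 0.06) and the X-linked Dkc1 at 0.50 (SE 0.05).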

How the data were processed

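The deposited table gives gene-level RPKM, made by the authors from stranded mRNA libraries, per the labels' protocols. The submitters' processing notes name Cufflinks 2.2.1, Bowtie2 2.2.5, TopHat2 2.1.0 and cutadapt 1.9.1 and the mm10 build, without saying which tool made the RPKM. No counts were used, so absolute depth is unknown. Values were taken to log2(RPKM + 1) with no further scaling, which understates changes of low genes, and genes with at least 1 RPKM in 2 libraries of a fit were kept. Linear models were fitted in R 4.3.3 with limma 3.58.1 (eBayes with a trend on lmFit and contrasts.fit), with Benjamini-Hochberg adjustment over all genes of a fit and a threshold of 0.05. The B6-cross fit held 16 libraries and 8 medium-by-sex means (8 residual degrees of freedom), the MSM-cross fit 10 libraries (4 degrees), and the joint fit 14 libraries (8 degrees). Medium differences average the XX and XY differences. Scripts were tested on simulated data, and Python 3.11.15 made the figures.

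The genes, and the 11 lists used here, were chosen with earlier results of these data known. Genes were named by rule: the paralogs and their partners, Rpsa and the stalk genes, the 3 highest and 3 lowest mean levels, up to 5 called genes in each direction of a comparison, and those without overlap in both crosses; of other lists, up to 4 called genes. Some genes that this rule names are not reported here. Alternatives were another pseudocount, no low-value filter, TPM, median-of-ratios and quantile scaling, fibroblast subtraction (for the other gene lists chosen after seeing the data), fits of only the compared libraries, and leaving out each library.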

Additional observations from a re-analysis of the deposited data

Results flagged for a closer look

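In 80 checks over 5 groups of 4 libraries, 5 values in 4 libraries stood apart from the rest of their group. By chance about 1 in 20 checks would give such a value, so the number found is near that share. Rplp1 read 7047 RPKM in 2i line c3, against 8459 to 8723 in the other 2i lines of the B6 cross. It read 6105 RPKM in serum line 17, against 6660 to 6742 in the other serum lines. The ribosomal protein genes as a whole made up 19.9% of the summed RPKM in serum line 17, against 21.5% to 21.6% in the others. Rplp0 read 1981 RPKM in t2i line t1, against 2426 to 2467, and Rpl22 read 3481 RPKM in a2i line a3, against 2200.0 to 2404.

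The 2i and serum difference of Rpl10l was 1.76 log2 units larger in the B6 cross than in the MSM cross (SE 0.27, limma adjusted p = 0.0012); all 4 B6-cross 2i lines exceeded all 4 serum lines, while the MSM-cross groups overlapped.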

How the results depend on the processing

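Precision was limited by the small groups, with 2 B6-cross lines of a sex in a medium and single 2iS and 2iMEF libraries. The 2i minus serum call of 51 genes higher became 21 under quantile normalization and 24 after fibroblast subtraction, and 17 to 67 with a library left out. For t2i minus serum, 23 became 12 without the filter, 48 with median-of-ratios scaling and 10 with quantile normalization. The t2i count was 4 after subtraction, 36 with only the compared libraries, and 5 to 42 with a library left out. For a2i minus serum, 39 became 18 under quantile normalization and 15 after subtraction, and 13 to 55 with a library left out. Quantile normalization also gave 1 gene lower in 2i and 1 in a2i against serum. In t2i minus 2i, 1 gene was lower with only the compared libraries, and 0 to 1 with a library left out. In XX minus XY, the 1 gene higher became 2 with TPM, 3 with quantile normalization and 1 to 2 with a library left out, and the 13 lower became 8 without the filter, 25 with TPM, 25 with quantile normalization and 5 to 26. In the MSM cross, quantile normalization gave 4 genes higher and 1 lower in 2i minus S, and 2 higher in MEFs; leaving out 2i line 15 gave 1 lower in 2i minus S (0 to 1), and leaving out MEF 2 gave 1 lower in 2iMEFs (0 to 1). Between the crosses, median-of-ratios scaling gave 2 larger and quantile normalization 1 smaller. The cause of these changes was not tested. A fit that leaves out a library also holds fewer libraries.

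Quantile normalization turned MEF minus 2i of Rpl13a to 0.11 (limma adjusted p = 0.37) and of Rps15a to 0.11 (limma adjusted p = 0.16). Of 92 named differences past the threshold, 44 stayed past it under every alternative run, 42 lost it with some library left out and 47 under another setting. No paired analysis was possible because the groups compared share fewer than 2 line numbers.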

Other observations

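In 2i the level of a ribosomal protein gene in the B6 cross was a median of 1.21 times that in the MSM cross, and 73 of 76 genes were higher there. The extremes were Rpl12 (2.37 times), named after its values were seen, and the paralogs Rpl10l (0.480 times) and Rpl39l (0.562 times). The cross and the processing of its libraries cannot be told apart in these values.

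Mitochondrial ribosomal protein genes, which serve the organelle's own translation, were called higher in 2i than in serum in 26 of 77 cases and lower in 0 by limma in the B6 cross (median 0.16), where 16.8% of all genes were called higher and 30.7% lower. In t2i 40 of 77 were called higher (median 0.25; 15.3% of all genes) and in a2i 14 (median 0.14; 12.4% of all genes). After subtraction of the fibroblast share, an alternative chosen for this list after seeing the data, 15 were called higher and 1 lower in 2i, 24 and 0 in t2i and 10 and 0 in a2i. In XX against XY lines 3 were higher and 27 lower (median −0.09; 21.4% and 20% of all genes). In MEFs against 2i 3 were higher and 58 lower (median −0.61; 29.9% and 41.2% of all genes).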
